A study of Mus musculus with 15 samples.

Results

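The Hox genes encode homeodomain transcription factors that lie side by side in 4 chromosomal clusters and give cells their position along the head-to-tail axis of the embryo. Within a cluster, genes with low paralog numbers, at the 3′ end, are as a rule switched on earlier and further forward than genes with high numbers. In stem cells the clusters are textbook targets of Polycomb repression, and retinoic acid, Wnt and Fgf signals and the Cdx factors open them as the primitive streak and the posterior body form. The genes were chosen as all protein-coding genes of GENCODE M21 whose symbol is Hoxa, Hoxb, Hoxc or Hoxd followed by a number. All 39 were present among the 55471 gene identifiers of the count files, and 38 of them, those without a read included, are described and counted here.

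The libraries are poly(A) RNA-seq of E14 mouse embryonic stem cells (mESCs), an established cell line grown on gelatin in 2i/LIF, and of embryoid bodies (EBs), which are aggregates that differentiate in suspension in serum medium without 2i and LIF. The study asked what the histone H3 lysine 36 methyltransferase NSD1, the Sotos syndrome gene product, does in stem cells and during their differentiation. A dTAG knock-in fuses the protein to a tag through which the small molecule dTAG-13 recruits an E3 ubiquitin ligase, so that the fusion is degraded. There are 5 groups of 3 libraries, called biological replicates in the labels. The first group is EBs of NSD1-dTAG cells differentiated for 6 days with 500 nM dTAG-13 throughout. The second is EBs of the same genotype and age without the compound. The other 3 are nontreated NSD1-dTAG mESCs, wild-type mESCs treated with 500 nM dTAG-13 for 72 h, and nontreated wild-type mESCs. Both EB groups and the nontreated NSD1-dTAG mESCs carry the tag, and the labels do not say how many clones were used. Neither EBs of wild-type cells nor NSD1-dTAG mESCs given the compound are analysed here, so in EBs the compound and the loss of the protein cannot be told apart.

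Gene counts per library ranged from 18704591 to 29103958. The mESC libraries had the pluripotency markers their label calls for, with 4670 to 5120 CPM (counts per 1000000 gene counts) summed over 7 naive and core genes, and 34.2 to 41.8 CPM over 6 streak and mesoderm markers. In EBs the pluripotency sum was 1370 to 1490 CPM with dTAG-13 and 1740 to 1830 CPM without, and all 6 streak and mesoderm markers were called higher in nontreated EBs than in the NSD1-dTAG mESCs. Nsd1 mRNA was at 230 to 329 CPM in dTAG-13 EBs and 209 to 261 CPM in nontreated EBs, which is no check of degradation, since the compound acts on the protein. In 5 libraries (replicate 3 of both EB groups and of the dTAG-13 wild-type mESCs, and replicate 1 of the NSD1-dTAG mESCs and of the nontreated wild-type mESCs) the mean exon length weighted by reads was 4.99 to 5.50 kb, against 5.71 to 5.93 kb in the other 10. These are the libraries that stand apart, and results that change without them are given both ways.

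The 10 Hoxa genes described span 98.5 kb of the minus strand at chr6:52162417-52260880 (GRCm38). The Hoxb cluster, with 10, spans 174 kb at chr11:96194316-96368256. Hoxc holds 9 in 116 kb at chr15:102921103-103036852, and Hoxd holds 9 in 96.8 kb at chr2:74668310-74765142, all 3 on the plus strand. Several members share annotated exon sequence with a neighbour: Hoxb2 and Hoxb3 overlap Hoxb3os over 953 and 2250 bases, Hoxa7 overlaps Hoxaas3 over 586 bases, and Hoxc5 and Hoxc10 share 166 bases on the same strand. The kit keeps the strand, but whether counting used the strand is not given in the sources used here, so reads of such pairs may not be told apart.

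Promoter windows of 22 of the 38 genes (24 windows, 250 bases before to 50 after the RefSeq start, GRCm38.p6) were in the reference table. Shown are those of Hoxb1 and Hoxb8, genes with more reads in nontreated EBs than in mESCs, and of Hoxc4 and Hoxa7, genes with fewer. Capitals mark matches to the CDX motif TTTATNG in Hoxb8 and to the nuclear receptor half-site AGGTCA, here on the opposite strand as TGACCT, in Hoxc4. The Hoxb1, Hoxb8 and Hoxc4 windows lie on the plus strand at chr11:96365508-96365807, chr11:96281655-96281954 and chr15:103034145-103034444, and the Hoxa7 window lies on the minus strand at chr6:52218524-52218823. The Hoxc4 and Hoxa7 starts of RefSeq fall inside the longer GENCODE genes.
Hoxb1: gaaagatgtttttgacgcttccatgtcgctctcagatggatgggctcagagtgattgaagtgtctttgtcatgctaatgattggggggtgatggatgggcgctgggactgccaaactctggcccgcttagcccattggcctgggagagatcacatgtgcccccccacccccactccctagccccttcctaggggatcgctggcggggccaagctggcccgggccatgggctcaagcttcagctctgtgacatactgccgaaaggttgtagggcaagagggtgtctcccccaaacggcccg
Hoxb8: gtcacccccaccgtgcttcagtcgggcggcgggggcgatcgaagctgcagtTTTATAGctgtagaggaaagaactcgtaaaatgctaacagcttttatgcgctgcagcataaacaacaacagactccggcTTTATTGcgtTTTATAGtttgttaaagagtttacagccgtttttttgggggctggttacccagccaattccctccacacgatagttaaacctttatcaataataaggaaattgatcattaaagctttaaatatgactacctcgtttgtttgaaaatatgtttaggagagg
Hoxc4: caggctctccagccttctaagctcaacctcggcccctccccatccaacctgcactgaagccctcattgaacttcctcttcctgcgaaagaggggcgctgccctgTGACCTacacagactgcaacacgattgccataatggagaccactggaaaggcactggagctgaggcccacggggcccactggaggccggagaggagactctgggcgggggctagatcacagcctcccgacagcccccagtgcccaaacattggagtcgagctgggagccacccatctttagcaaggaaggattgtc
Hoxa7: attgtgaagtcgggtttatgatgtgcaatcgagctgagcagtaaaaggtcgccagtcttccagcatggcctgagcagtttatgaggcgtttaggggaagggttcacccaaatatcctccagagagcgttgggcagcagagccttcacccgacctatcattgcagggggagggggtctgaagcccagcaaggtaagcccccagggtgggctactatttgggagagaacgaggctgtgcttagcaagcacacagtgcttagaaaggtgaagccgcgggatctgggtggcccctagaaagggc
The Hox windows had a median CpG observed-over-expected ratio of 0.626, against 0.384 over all 32851 promoter windows of the table. TTTATNG was found on either strand in 2 Hox windows (8.33%) and in 10.9% of all windows, and AGGTCA in 7 (29.2%) and 16.3%. TATAAA was found in 4 (16.7%) and 13.6%, and TGATTNAT, the joint HOX-PBX motif, in 2 (8.33%) and 3.22%. In Hoxb8, 2 of the 3 TTTATNG matches also hold TATAAA read on the other strand. These matches are strings of letters, not shown sites.

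Hox transcripts were scarce in every group. Summed over the 38 genes they made up 2.67 ± 0.0458 CPM in dTAG-13 EBs and 6.05 ± 2.92 CPM in nontreated EBs (SD, n = 3 each). In mESCs the sums were higher, at 19.2 ± 0.907 CPM in NSD1-dTAG cells, 16.6 ± 0.3 CPM in dTAG-13-treated wild-type cells and 15.3 ± 0.833 CPM in nontreated wild-type cells. The number of these genes with at least 1 read in any of a group's 3 libraries was 27, 31, 26, 26 and 25 in the same order. Hoxd3 had no read in any of the 15 libraries, and Hoxd4, Hoxd10 and Hoxd12 had 1 read each in all.

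**Figure D1:**
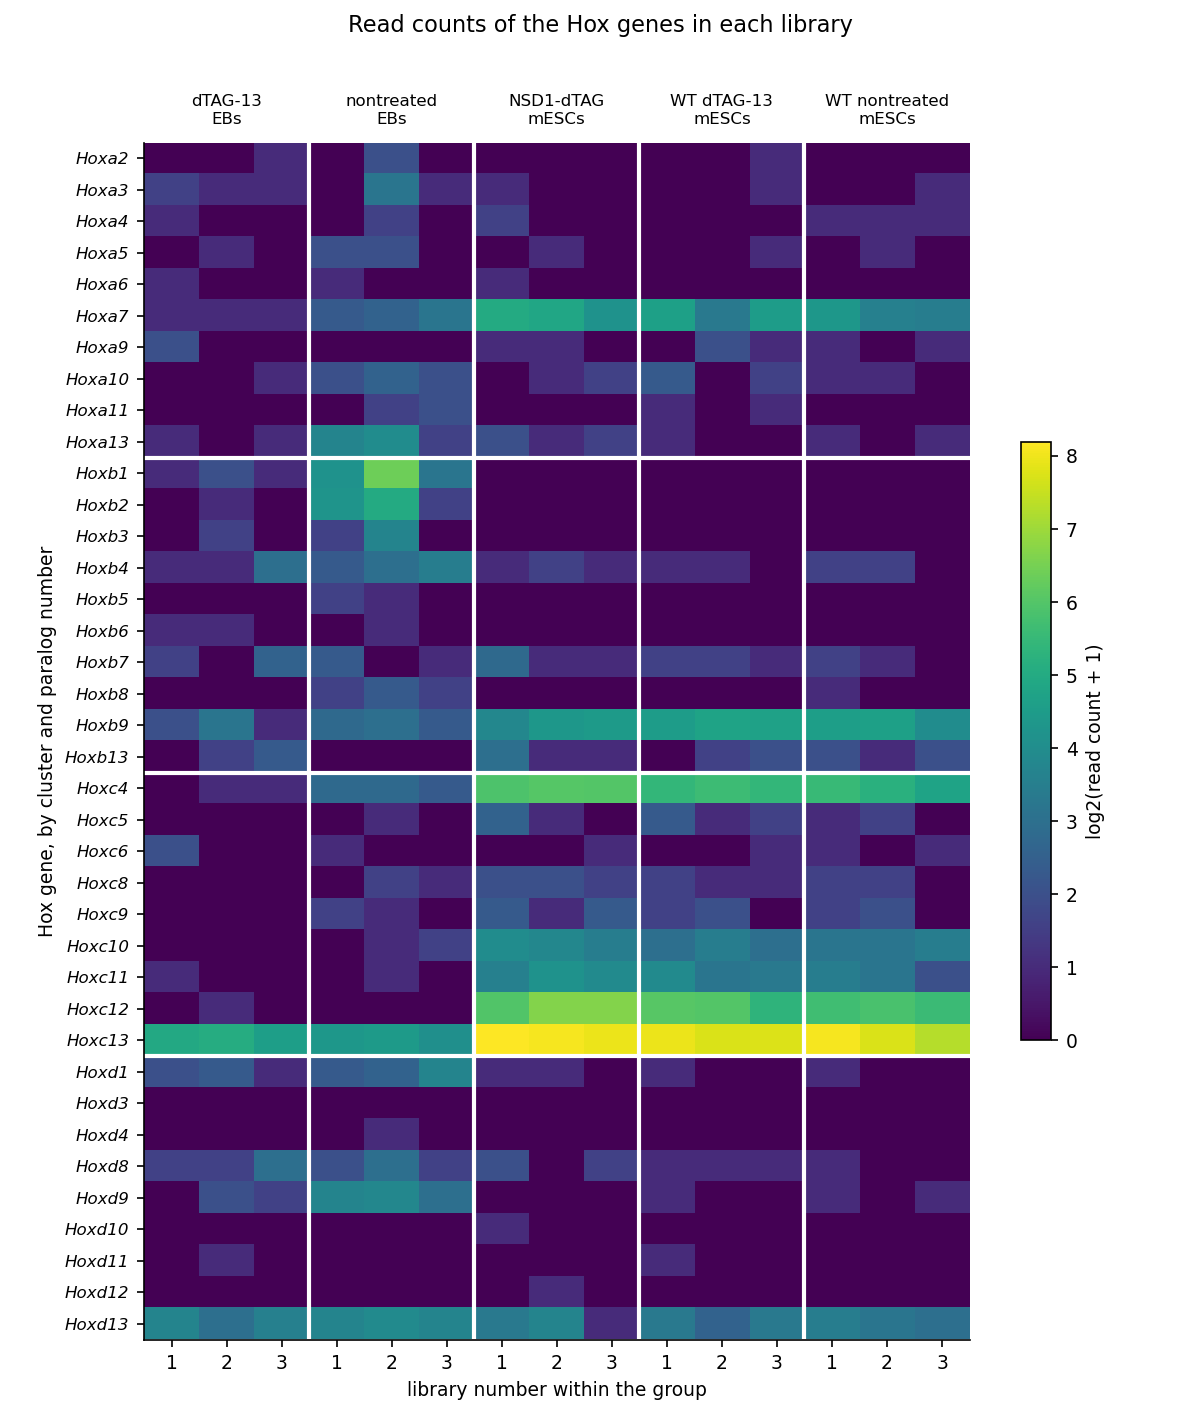
Read counts of the 38 Hox genes, 1 row per gene and 1 column per library, coloured by log2(read count + 1), with white lines between clusters and between groups. The bright rows in mESCs are Hoxc13, Hoxc12 and Hoxc4, and the bright rows in nontreated EBs include Hoxb1 and Hoxb2.

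Hoxc held the most reads of all clusters in every mESC and every dTAG-13 EB library, but with a smaller share in those EBs. In nontreated EBs Hoxb held the most in replicates 1 and 2, and Hoxd in replicate 3. The Hoxc genes gave 82.4% to 90.2% of the reads of the 38 genes in the 9 mESC libraries, but 35.3% to 50.0% in dTAG-13 EBs and 12.6% to 23.0% in nontreated EBs. In CPM the Hoxc sum was 1.19 ± 0.227 in dTAG-13 EBs, 1.02 ± 0.158 in nontreated EBs and 16.8 ± 1.3, 14.1 ± 0.436 and 13.1 ± 0.608 in NSD1-dTAG, dTAG-13-treated wild-type and nontreated wild-type mESCs. For Hoxb the sum was 0.560 ± 0.214 CPM in dTAG-13 EBs, 2.75 ± 2.19 CPM in nontreated EBs and 0.911 ± 0.0765 CPM in NSD1-dTAG mESCs. The sum over the 10 Hoxa genes was 0.219 ± 0.122, 1.01 ± 0.467 and 1.11 ± 0.244 CPM in those 3 groups, and the Hoxd sum 0.704 ± 0.0942, 1.27 ± 0.135 and 0.369 ± 0.214 CPM.

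**Figure D2:**
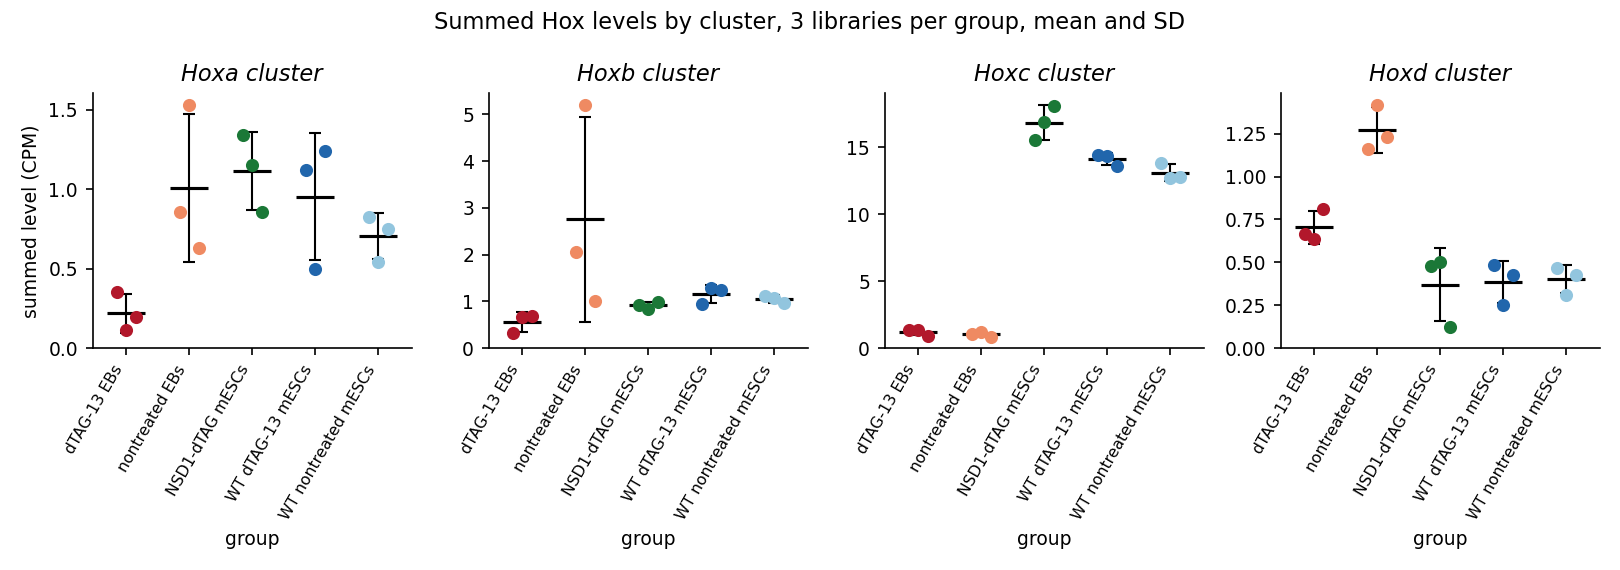
Summed level of the described genes of each Hox cluster in CPM (vertical axis, own scale per panel) in the 5 groups, with 1 point per library, the mean as a line and the SD as a bar. The Hoxc panel separates mESC libraries, at 12.7 to 18.1 CPM, from EB libraries, at 0.855 to 1.33 CPM, and the Hoxb panel shows nontreated EB replicate 2 at 5.20 CPM above all others.

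By paralog number the EB groups differed most at the 3′ end. Of the genes described, those numbered 1 to 3 summed to 0.267 ± 0.131 CPM in dTAG-13 EBs and 2.48 ± 2.26 CPM in nontreated EBs, against 0.0349 ± 0.0344 CPM in NSD1-dTAG mESCs. Genes 4 to 8 summed to 0.514 ± 0.278, 1.19 ± 0.200 and 3.66 ± 0.137 CPM, and genes 9 to 13 to 1.89 ± 0.204, 2.38 ± 0.520 and 15.5 ± 1.06 CPM, in the same 3 groups. The nontreated EB value of genes 1 to 3 rests on replicate 2, with 1.53, 5.06 and 0.855 CPM in the 3 libraries and a mean of 1.19 CPM without it. No test was run on these sums.

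Levels between genes were compared per length, as TPM (reads per kb of merged exon, scaled to sum to 1000000). In mESCs the most abundant Hox transcript was Hoxc13, a posterior paralog with a known role in hair and nail, at 13.6 ± 1.16 TPM in NSD1-dTAG cells, 12.7 ± 0.477 TPM in dTAG-13-treated wild-type cells and 12.2 ± 0.726 TPM in nontreated wild-type cells. Hoxc12, its neighbour, followed at 11.0 ± 4.17, 7.56 ± 1.99 and 7.28 ± 1.41 TPM. These are levels near that of the median protein-coding gene with reads, which was 9.67 to 9.99 TPM in the mESC groups. In NSD1-dTAG cells the ranges of Hoxc13 (12.4 to 14.7 TPM) and Hoxc12 (6.29 to 14.2 TPM) overlapped, so their order there is within the spread, while in both wild-type groups they did not overlap. Hoxc4, at the other end of the cluster, was at 3.06 ± 0.596, 2.39 ± 0.307 and 1.97 ± 0.106 TPM, and no other Hox gene reached the mean TPM of these 3. Hoxa7 and Hoxb9 came below these, at 1.07 ± 0.194, 0.876 ± 0.362 and 0.656 ± 0.134 TPM for Hoxa7 and 0.884 ± 0.332, 1.32 ± 0.180 and 1.15 ± 0.109 TPM for Hoxb9. Their ranges overlapped in NSD1-dTAG cells only, and in both wild-type groups Hoxb9 was the higher of the pair.

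**Figure D3:**
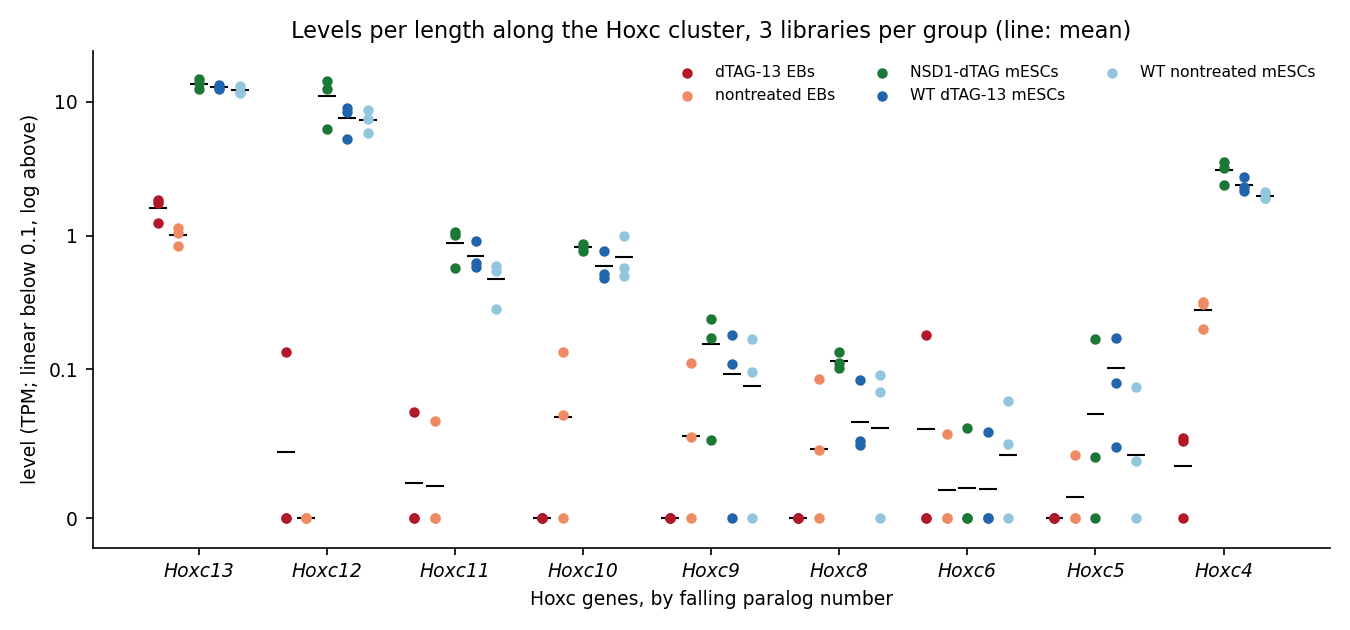
Level of each Hoxc gene in TPM (vertical axis, linear below 0.1 and logarithmic above) with 1 point per library and the mean as a line, coloured by group. Hoxc13, Hoxc12 and Hoxc4 stand above the genes between them in mESCs, and all 9 genes are at 1.85 TPM or lower in every EB library.

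In EBs the order was another one. Nontreated EBs had Hoxb1, which patterns the hindbrain and posterior streak, at 2.05 ± 2.32 TPM, Hoxc13 at 1.00 ± 0.149 TPM and Hoxd13, a limb and genital tubercle gene, at 0.674 ± 0.0622 TPM. Hoxb1 ranged from 0.444 to 4.71 TPM over those 3 libraries, so its place against its neighbours is within the spread. In dTAG-13 EBs Hoxc13 was at 1.62 ± 0.329 TPM and Hoxd13 at 0.558 ± 0.156 TPM, without overlap. The median protein-coding gene with reads was at 11.6 TPM in dTAG-13 EBs and 11.0 TPM in nontreated EBs, above the mean of every Hox gene described.

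The comparison of dTAG-13 EBs with nontreated EBs asks what treatment through differentiation changes in cells of 1 genotype. Among genes with reads in both groups, the lowest read ratios were those of Hoxb1 and Hoxb2 at the 3′ end of the Hoxb cluster. Those genes did not reach the count filter. In bulk RNA, fewer cells that express a gene and less RNA per cell cannot be told apart, here and below.

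Of the 38 genes, 2 passed the count filter in that comparison and neither was called by edgeR's quasi-likelihood test. Among all 15236 genes tested, 6.76% were called (3.98% higher, 2.78% lower). At an unadjusted p below 0.05 were 1 of the 2 Hox genes and 3313 of all genes tested. Hoxc13 had 30, 33 and 23 reads in dTAG-13 EBs and 19, 21 and 16 in nontreated EBs. All 3 treated libraries lay above the nontreated ones, with a log2 fold change of 0.66 ± 0.25 that was not called (adjusted p = 0.176, edgeR). Hoxd13 had 12, 7 and 11 reads with dTAG-13 and 12, 14 and 12 without, at a log2 fold change of -0.29 ± 0.33 (adjusted p = 0.686, edgeR). The groups of Hoxd13 touched at 12 reads in raw counts and overlapped in CPM.

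The count of calls depended on nontreated EB replicate 3, one of the libraries that stand apart. Without it 6 Hox genes were tested and 3 were called, all lower (Hoxa13, Hoxb1 and Hoxb2), where 4.25% of all genes tested were lower. With dTAG-13 EB replicate 3 left out as well, Hoxd9 was called too, 4 of 6, and the lower calls over all genes stood at 10.2%. These 4 genes passed the filter through the nontreated EBs, where they are high, so a fall was the call open to them.

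Below the filter lay Hoxb1 and Hoxb2, which had the lowest read ratios of the genes with reads in both EB groups. Hoxb1 had 1, 3 and 1 reads in dTAG-13 EBs and 17, 83 and 8 in nontreated EBs, and 0 in all 9 mESC libraries. All 3 treated libraries were low, while the nontreated ones differed among themselves by a wide margin. Over the 3 libraries of a group, the normalized read ratio was 0.0484 (95% exact interval 0.0154 to 0.116, which covers counting error only), and 0.137 (0.0411 to 0.365) without nontreated EB replicate 2, left out after its values were seen. Hoxb2, which acts with Hoxb1 in the hindbrain, had 0, 1 and 0 reads with dTAG-13 and 18, 31 and 2 without, and Hoxb3, the next gene, had 0, 2 and 0 against 2, 12 and 0. The nearest libraries of Hoxb2 thus had 1 and 2 reads, and the groups of Hoxb3 overlapped. The antisense transcript Hoxb3os, whose exons overlap those of Hoxb2 and Hoxb3, had 0, 0 and 1 reads in dTAG-13 EBs and 3, 12 and 1 in nontreated EBs. Nontreated EB replicate 2 was highest for all 4 transcripts.

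Hoxd9 and Hoxa13, both of posterior paralog groups, also had few reads with treatment. Hoxd9 had 0, 3 and 2 in dTAG-13 EBs and 12, 13 and 7 in nontreated EBs. For Hoxa13 the reads were 1, 0 and 1 against 12, 15 and 2. Neither gene's groups overlapped, although nontreated replicate 3 of Hoxa13 was 1 read above the highest treated library. Haglr, a long noncoding RNA of the Hoxd cluster, had 3, 2 and 2 reads with dTAG-13 and 6, 11 and 8 without.

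When every gene with a read was tested without a filter, 35 Hox genes entered and 4 were called lower, namely Hoxa13, Hoxb1, Hoxb2 and Hoxd9, against 2.49% lower and 2.85% higher calls among all 28566 genes. The log2 fold changes were -4.27 ± 0.81 for Hoxb1 (adjusted p = 0.00261), -5.17 ± 1.03 for Hoxb2 (adjusted p = 0.00401), -3.58 ± 0.89 for Hoxa13 (adjusted p = 0.0205) and -2.55 ± 0.67 for Hoxd9 (adjusted p = 0.0283) in edgeR. DESeq2 called Hoxb1 and Hoxb2 lower, as were 4.16% of all genes. Fitting all 5 groups together called Hoxa7 and Hoxc4 lower, as were 5.52% of all genes. Both passed the filter of that fit through the mESC libraries, where they are high, and did not pass it with the EB groups alone. No Hox gene was called higher in any of these fits.

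**Figure D4:**
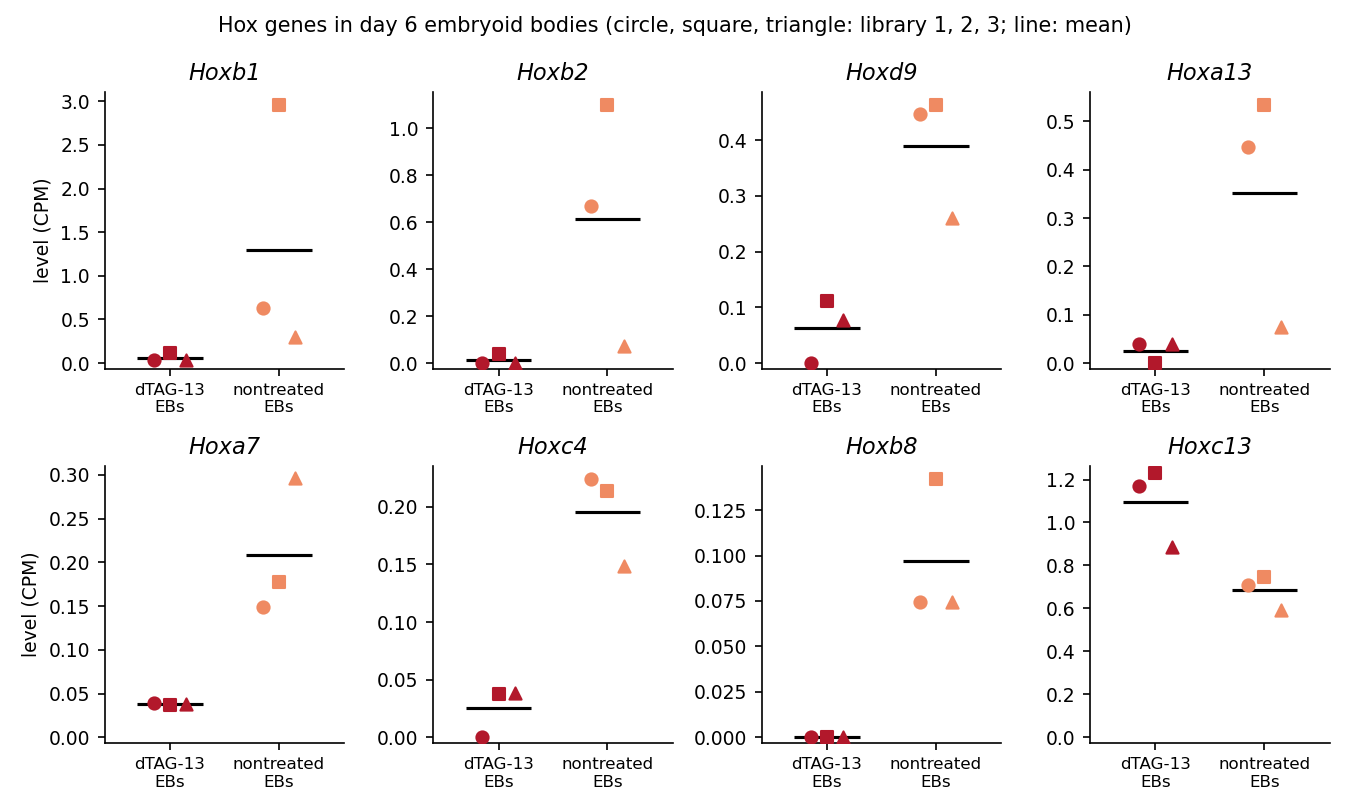
Level in CPM (vertical axis, own scale per panel) of 8 Hox genes in dTAG-13 EBs and nontreated EBs, with 1 symbol per library by replicate number and the mean as a line. The treated libraries lie below the nontreated ones for the first 7 genes shown and above them for Hoxc13, and nontreated replicate 2 stands far above the others for Hoxb1, at 2.96 CPM.

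Counted without a test, the groups did not overlap in CPM for 9 Hox genes. Hoxa7, Hoxa10, Hoxa13, Hoxb1, Hoxb2, Hoxb8, Hoxc4 and Hoxd9, 8 of the 35 with a read, were lower in every dTAG-13 EB than in every nontreated one, as were 7.71% of all genes with a read. Hoxc13 was higher in every treated EB, as were 11.6% of all genes. Hoxa7 had 1, 1 and 1 reads with dTAG-13 and 4, 5 and 8 without, and Hoxc4 had 0, 1 and 1 against 6, 6 and 4. Hoxb8 had 0 reads in all 3 treated libraries and 2, 4 and 2 in the nontreated ones, at least 2.55-fold lower with the treated group set at 3 counts. Hoxb13 went the other way, with 0, 2 and 4 reads in treated libraries and 0, 0 and 0 in nontreated ones. With the nontreated group set at 3 counts, Hoxb13 was at least 2.09-fold higher, but the groups overlapped in CPM. Hoxa9 had 3, 0 and 0 reads against 0, 0 and 0. Hoxb4, Hoxb7, Hoxb9, Hoxd1 and Hoxd8 had 7 to 12 reads over the treated group and 5 to 21 over the nontreated group and overlapped.

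Markers of streak, mesoderm and definitive endoderm moved with these genes. The 6 streak and mesoderm markers summed to 59.1, 122 and 32.2 CPM in dTAG-13 EBs and 482, 780 and 294 CPM in nontreated EBs, with nontreated replicate 2 highest and replicate 3 lowest, as for Hoxb1. All 6 had reads in both groups, and 3 were called lower (Eomes, Mixl1 and Mesp1). The 4 definitive endoderm markers summed to 11.6 to 25.8 CPM with dTAG-13 and 53.0 to 208 CPM without, with 3 called lower, none at 0 in either group. The sums of 6 primitive and visceral endoderm markers overlapped, at 36.9, 32.5 and 124 CPM with dTAG-13 and 89.5, 91.8 and 102 CPM without. Of 7 pluripotency markers 4 were called lower, and of 4 germ cell markers 2 were called higher. Trophoblast markers, a list that includes Cdx2, summed to 28.5 to 51.9 CPM and 44.2 to 97.7 CPM. Their part in the Hox results was not tested.

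Among regulators of the clusters, the ParaHox and Evx genes fell furthest. Of 8, 4 were tested, with 3 called lower and 1 higher and a median log2 fold change of -3.64, against -0.0056 over all genes tested. Cdx2, a caudal factor that activates Hox genes in the posterior embryo, was at 0.156, 0.299 and 0.386 CPM in dTAG-13 EBs and 8.69, 11.8 and 4.87 CPM in nontreated EBs, a log2 fold change of -4.90 ± 0.43 (adjusted p = 0.0031, edgeR). Evx1, a streak homeobox gene that lies beside the Hoxa cluster, was at 0.938, 1.68 and 0.193 CPM against 17.6, 35.7 and 12.2 CPM, a log2 fold change of -4.54 ± 0.60 (adjusted p = 0.0087, edgeR). Cdx1 had a log2 fold change of -2.74 ± 0.39, and Gsx1, a ParaHox gene of the neural tube, rose by 2.09 ± 0.41 at a low level of 0.758 ± 0.294 CPM with dTAG-13 and 0.171 ± 0.0198 CPM without.

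Of 9 posterior axis signals tested, 2 fell and none rose, with a median log2 fold change of -1.04. Wnt3, which is needed for the primitive streak, fell by 2.44 ± 0.54 in log2 units (adjusted p = 0.0368, edgeR), and Fgf8 fell by 1.63 ± 0.39 (adjusted p = 0.0454, edgeR). Brachyury (T) was at 11.6, 33.8 and 0.27 CPM with dTAG-13 and 238, 376 and 139 CPM without, a log2 fold change of -4.06 ± 1.01 that was not called (adjusted p = 0.0526, edgeR). Of 14 retinoic acid genes tested, 2 fell and 1 rose, with a median of 0.18. Cyp26a1, the enzyme that degrades retinoic acid in the posterior embryo, was at 23.4 ± 12.8 CPM with dTAG-13 and 121 ± 69.7 CPM without, a log2 fold change of -2.37 ± 0.51 (adjusted p = 0.0337, edgeR). Crabp1, which binds retinoic acid in the cytoplasm, had a log2 fold change of -1.19 ± 0.19, and the receptor gene Rara rose by 0.54 ± 0.11.

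Hox cofactors and chromatin regulators of the clusters were called in single cases, and over all genes 6.76% were called. None of 8 TALE cofactors, which bind DNA together with Hox proteins, was called in edgeR, with Pbx2 at 96.3 ± 7 CPM with dTAG-13 and 97.5 ± 5.85 CPM without. At an unadjusted p below 0.05, 1 of them passed, Pknox2 (log2 fold change -1.12 ± 0.38), named after its value was seen. Of 12 Polycomb repressive complex 2 (PRC2) genes 1 fell, Rbbp7, with a log2 fold change of -0.45 ± 0.09, while its histone-binding relative Rbbp4 was at 535 ± 31.4 CPM with dTAG-13 and 587 ± 65.9 CPM without and was not called. Of 12 PRC1 genes 1 rose, Cbx6, by 0.49 ± 0.10, and 1 fell, Phc2, with a log2 fold change of -0.41 ± 0.09. None of 10 trithorax and H3K27 demethylase genes was called by edgeR, and 1, Ash2l (-0.22 ± 0.08), named after its value was seen, had an unadjusted p below 0.05. Over all 15236 genes tested, 3313 had an unadjusted p below 0.05. The list medians were -0.26, -0.19, -0.04 and 0.09.

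The genes around the clusters included 2 that were called. Of the 16 protein-coding genes nearest to the clusters, 2 on each side, 15 were tested and 2 fell, Evx1 and Smug1, a DNA glycosylase gene near Hoxc (log2 fold change -0.50 ± 0.11). The median of the 15 was -0.15, and over all genes 6.76% were called. Between the outermost Hox genes of the clusters lie 46 other annotated genes, of which 16 had a read in any library and 1 was tested. The 5 microRNA genes there that were looked at, of the miR-10 and miR-196 families, include 1 with reads, Mir196a-1 of the Hoxb cluster, with 1, 0 and 0 reads in dTAG-13 EBs, 0, 3 and 1 in nontreated EBs and 3, 5 and 5 in NSD1-dTAG mESCs. Poly(A) libraries read the primary transcript at such a locus, not the mature form. The mature products are shown because they target Hox mRNAs, with the seed (bases 2 to 8) in capitals, from the RefSeq table.
mmu-miR-196a-5p: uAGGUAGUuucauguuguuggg
mmu-miR-196b-5p: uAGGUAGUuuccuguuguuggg
mmu-miR-10a-5p: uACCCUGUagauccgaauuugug
mmu-miR-10b-5p: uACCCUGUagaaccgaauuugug
miR-196a-5p and miR-196b-5p share the seed AGGUAGU, and miR-10a-5p and miR-10b-5p share ACCCUGU.

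The comparison of nontreated EBs with nontreated NSD1-dTAG mESCs sets the clusters after 6 days of differentiation beside those in stem cells. Levels moved both ways: Hoxc13, with reads in every library of both groups, was far lower in EBs, and Hoxb1, Hoxb2 and Hoxd9 had reads in EBs and none in NSD1-dTAG mESCs. The test called 7 genes, all lower, and without a count filter 8 lower and 8 higher, so that tally depends on the filter. The background is wide: 59.5% of the 15193 genes tested were called, 33.1% higher and 26.3% lower. Of the 38 genes, 8 passed the filter. For 6 of them (Hoxa7, Hoxb9, Hoxc4, Hoxc10, Hoxc11 and Hoxc12) every EB library had fewer than 10 reads, so they passed through the mESC libraries, where they are high, and a fall was the call open to them. Genes high in EBs and near 0 in mESCs, such as Hoxb1, were not tested. The EB libraries had no reads of the ERCC spike-in that the mESC libraries carried, so stage and library handling cannot be told apart.

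Hoxc13 had 19, 21 and 16 reads in nontreated EBs, against 292, 268 and 249 in NSD1-dTAG mESCs. The log2 fold change was -4.00 ± 0.18 (adjusted p = 1.15e-06, edgeR), and the groups lay far apart. Hoxc12 had 0 reads in all 3 nontreated EBs and 62, 101 and 101 in the mESCs, at least 88.4-fold lower with the EB group set at 3 counts. Hoxc11 had 0, 1 and 0 reads against 11, 17 and 14, a normalized read ratio of 0.0237 (95% exact interval 0.000587 to 0.140). Hoxc10 had 0, 1 and 2 reads against 15, 13 and 10, a ratio of 0.0786 (0.0155 to 0.248).

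Hoxc4 was the one anterior-side gene with a fall of similar size. It had 6, 6 and 4 reads in nontreated EBs and 59, 65 and 63 in NSD1-dTAG mESCs, a log2 fold change of -3.67 ± 0.28 (adjusted p = 1.28e-05, edgeR). Hoxa7 had 4, 5 and 8 reads against 31, 28 and 17, a log2 fold change of -2.28 ± 0.37 (adjusted p = 0.000854, edgeR), and Hoxb9 had 6, 7 and 4 against 13, 19 and 21, a log2 fold change of -1.78 ± 0.37 (adjusted p = 0.00365, edgeR). In all 7 called genes, and in Hoxb13 and Hoxc8, every EB library was below every mESC library in CPM, as for 15.4% of all 28338 genes with a read. The counts of dTAG-13 EBs were also low for the called genes, with 0, 1 and 1 reads of Hoxc4, 0, 1 and 0 of Hoxc12 and 1, 0 and 0 of Hoxc11.

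In the other direction, 8 of the 36 Hox genes with a read were higher in CPM in every EB library than in every mESC library. They were Hoxa10, Hoxb1, Hoxb2, Hoxb4, Hoxb8, Hoxd1, Hoxd9 and Hoxd13, and the same held for 29.3% of all genes with a read. Hoxd13 had 12, 14 and 12 reads against 9, 12 and 1 and was not called (log2 fold change 0.64 ± 0.54, adjusted p = 0.338, edgeR). Genes with no read in the NSD1-dTAG mESCs did not reach the filter. With that group set at 3 counts, Hoxb1 was at least 35.9-fold, Hoxb2 at least 16.9-fold, Hoxd9 at least 10.6-fold, Hoxb3 at least 4.65-fold and Hoxb8 at least 2.66-fold higher in nontreated EBs. These bounds take the EB reads as exact. Without nontreated EB replicate 2 the bounds were 12.6-fold for Hoxb1 and 10.1-fold for Hoxb2, and Hoxb3 had 2 reads left. Without the filter 36 Hox genes were tested and 16 were called, 8 higher (Hoxa13, Hoxb1, Hoxb2, Hoxb3, Hoxb4, Hoxb8, Hoxd1 and Hoxd9) and 8 lower (the 7 above and Hoxb13), against 20.5% higher and 15.2% lower among all 28338 genes. Hoxd1 had 4, 5 and 12 reads in EBs and 1, 1 and 0 in mESCs, and Hoxb4 had 4, 7 and 10 against 1, 2 and 1. Leaving out nontreated EB replicate 3 brought 12 genes past the filter and 11 calls, with Hoxa13, Hoxb1, Hoxb2 and Hoxd9 higher, where 32.4% of all genes were higher and 23.5% lower. Hoxa13, Hoxb1, Hoxb2 and Hoxd9 passed the filter there through the nontreated EBs, where they are high, so a rise was the call open to them.

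Most signals and cofactors of the Hox genes rose in the same comparison. Of 9 posterior axis signals tested 8 rose and 1 fell, with a median log2 fold change of 3.77, against 0.0163 over all genes. Fgf8 was at 71.3 ± 22.9 CPM in nontreated EBs and 0.210 ± 0.0324 CPM in NSD1-dTAG mESCs, Wnt3 was at 26.6 ± 7.20 and 0.0620 ± 0.0235 CPM, and Fgf4 fell, with a log2 fold change of -2.76 ± 0.12. Of 8 TALE cofactors 5 rose and 1, Meis2, fell, with Pbx3 at 38.2 ± 7.29 CPM in EBs and 2.34 ± 0.243 CPM in mESCs (log2 fold change 3.88 ± 0.18, adjusted p = 1.28e-06, edgeR). Among 14 retinoic acid genes 8 rose and 4 fell, with Dhrs3, a retinal-reducing enzyme gene, at 8.97 ± 1.25 CPM in EBs and 0.133 ± 0.0721 CPM in mESCs, and Crabp1 at 5.43 ± 0.454 and 18.7 ± 3.98 CPM.

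The ParaHox and Evx genes were split in this comparison. Evx1 rose by 3.24 ± 0.40 on the log2 scale (21.8 ± 12.3 CPM in EBs and 2.07 ± 0.324 CPM in mESCs), while Cdx1 fell by 4.68 ± 0.30 (1.12 ± 0.395 and 26.1 ± 6.19 CPM). Cdx2, at 8.46 ± 3.48 and 4.23 ± 1.02 CPM, was not called (log2 fold change 0.85 ± 0.33, adjusted p = 0.0548, edgeR). Of 12 PRC2 genes 4 rose and 4 fell, among them Phf19, an accessory subunit gene, at 30.3 ± 7.92 CPM in EBs and 1.45 ± 0.542 CPM in mESCs, and Epop at 105 ± 3.60 and 419 ± 74.5 CPM. The genes that flank the clusters went both ways, with 4 higher and 4 lower of 14 tested and a median of 0.12. Skap2, an adaptor gene beside the Hoxa cluster, fell by 1.35 ± 0.10 on the log2 scale (adjusted p = 1.45e-05, edgeR).

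**Figure D5:**
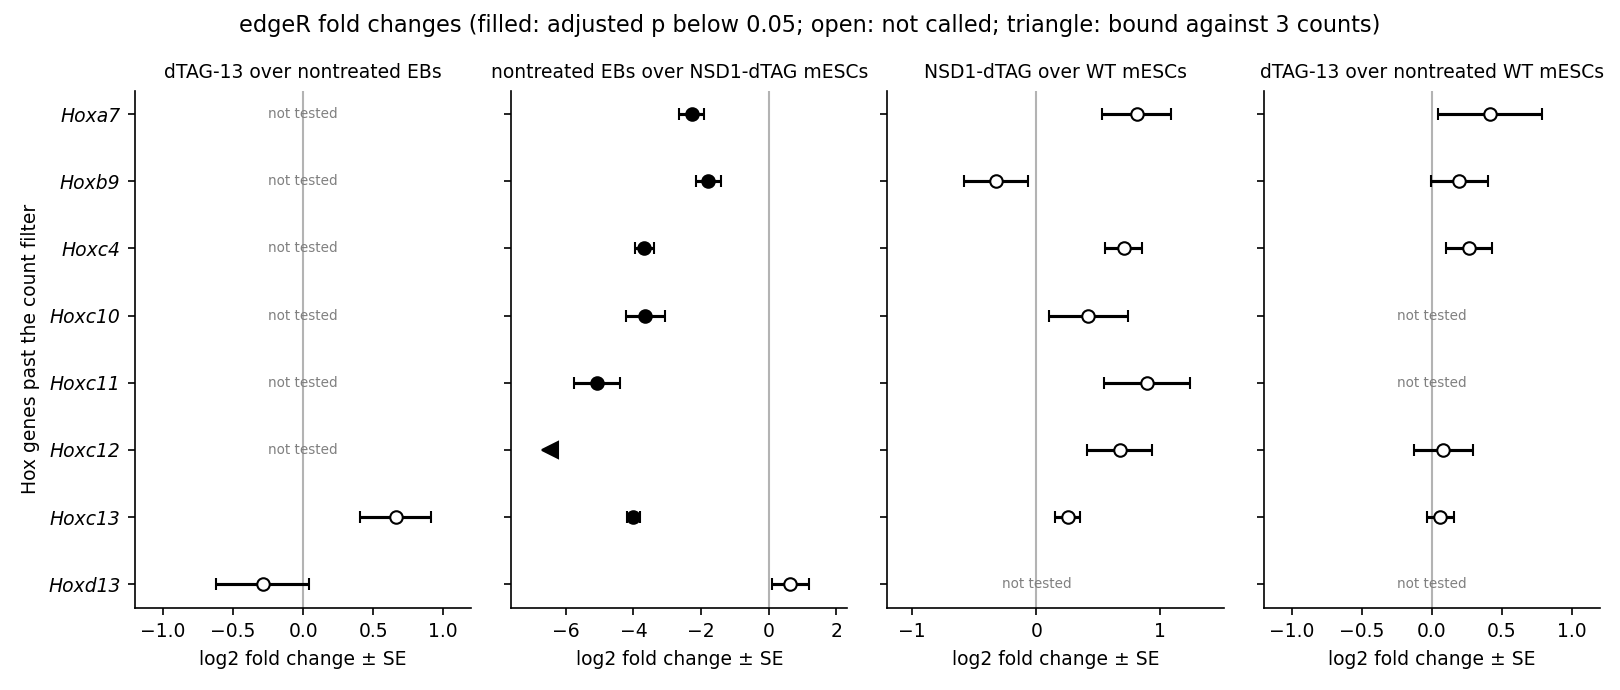
Log2 fold changes with SE (horizontal axis, own scale per panel) of the Hox genes that passed the count filter, 1 panel per comparison of 2 groups, with filled symbols where the adjusted p was below 0.05. The triangle for Hoxc12 marks the bound against 3 counts in nontreated EBs, and, of the 4 panels, only that of nontreated EBs over NSD1-dTAG mESCs holds filled symbols.

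Nontreated NSD1-dTAG mESCs were set against nontreated wild-type mESCs to see what the knock-in line changes without the compound. None of the Hox genes was called in edgeR among 7 tested, 5 had an unadjusted p below 0.05, and DESeq2 called none of 8, with 2 below 0.05. Over all 13895 genes 1.86% were called, 0.547% higher and 1.32% lower. An unadjusted p below 0.05 was reached by 1957 of these genes in edgeR, and by 1719 genes in DESeq2. Hoxc13 had 292, 268 and 249 reads in NSD1-dTAG mESCs and 268, 213 and 153 in wild-type mESCs, or 10.0, 9.64 and 10.1 CPM against 9.58, 8.22 and 8.18 CPM. The log2 fold change was 0.25 ± 0.10 (adjusted p = 0.331, edgeR), and the CPM ranges of the groups did not overlap.

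Hoxc12 was at 2.13, 3.63 and 4.11 CPM in NSD1-dTAG mESCs and 1.79, 2.16 and 2.51 CPM in wild-type mESCs, ranges that overlapped (log2 fold change 0.67 ± 0.26, adjusted p = 0.302, edgeR). Hoxc4 was at 2.03, 2.34 and 2.56 CPM against 1.61, 1.39 and 1.39 CPM and did not overlap (log2 fold change 0.70 ± 0.15, adjusted p = 0.0766, edgeR). The others were Hoxa7 at 0.81 ± 0.28, Hoxc11 at 0.89 ± 0.34, Hoxc10 at 0.42 ± 0.32 and Hoxb9 at -0.33 ± 0.26. The median of the 7 was 0.67, against 0.0118 over all genes. In 5 Hox genes (Hoxa7, Hoxc4, Hoxc8, Hoxc11 and Hoxc13) every NSD1-dTAG library was above every wild-type one, as were 4.29% of all 26385 genes with a read, and in none was every one below, against 11.2% of all genes.

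The calls depended on 1 library. Leaving out NSD1-dTAG mESC replicate 1, which stands apart, 2 Hox genes were called higher, Hoxc4 (log2 fold change 0.77, adjusted p = 0.0255) and Hoxc12 (0.90, adjusted p = 0.00896), where 4.33% of all genes were higher. With wild-type replicate 1 left out as well, Hoxc4, Hoxc11, Hoxc12 and Hoxc13 were called higher, at log2 fold changes of 0.85, 1.28, 0.77 and 0.30, where 11.5% of all genes were higher. The TALE gene Meis2 rose by 1.37 ± 0.13 on the log2 scale in NSD1-dTAG mESCs (adjusted p = 0.0113, edgeR), at 35.4 ± 3.38 CPM against 14.2 ± 2.14 CPM, and Pknox2 rose by 1.03 ± 0.18. Evx1 was at 2.07 ± 0.324 and 1.26 ± 0.125 CPM and was not called (adjusted p = 0.102, edgeR).

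The compound alone was tested in wild-type mESCs, which carry no tag. Of 5 Hox genes tested none was called in edgeR and none had an unadjusted p below 0.05. DESeq2 also called 0 of 28, none below 0.05, and over all 13784 genes the share called was 0, with 229 at an unadjusted p below 0.05 in edgeR. Hoxc13 was at 9.25, 8.74 and 9.33 CPM in dTAG-13-treated and 9.58, 8.22 and 8.18 CPM in nontreated wild-type mESCs. The log2 fold change was 0.06 ± 0.10, and the ranges overlapped. Hoxc12 was at 2.46, 2.61 and 1.67 CPM against 1.79, 2.16 and 2.51 CPM (0.08 ± 0.21), and Hoxc4 at 1.57, 1.99 and 1.80 CPM against 1.61, 1.39 and 1.39 CPM (0.27 ± 0.16). Hoxb9 was at 0.821, 1.08 and 1.07 CPM against 0.822, 0.926 and 0.802 CPM (0.20 ± 0.20). Hoxa7 had a log2 fold change of 0.42 ± 0.37. Without overlap in CPM were Hoxd8 (higher) and Hoxa4 (lower), each with at most 1 read per library, where 3.15% and 2.56% of genes had no overlap. In raw counts the groups of Hoxd8 touched at 1 read.

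The effect of dTAG-13 in NSD1-dTAG EBs was then tested against its effect in wild-type mESCs. Of 6 Hox genes tested 1, Hoxc4, was called, with a lower effect in EBs, where 2.88% of all 15855 genes were called, 1.6% higher and 1.27% lower. For Hoxc4 the difference of the log2 effects was -3.01 ± 0.63 (adjusted p = 0.0238, edgeR). The gene passed the filter through the wild-type mESC libraries, where it is high, and was not tested between the EB groups. The difference comes from 2 reads over the dTAG-13 EBs and 16 over the nontreated EBs, against 132 over the treated and 107 over the nontreated wild-type mESCs. Leaving out 1 library ended the call in 6 cases, namely dTAG-13 EB replicate 1, nontreated EB replicate 1 or 2, dTAG-13 wild-type mESC replicate 2 and nontreated wild-type mESC replicate 2 or 3, with adjusted p of 0.0531 to 0.101. Hoxa7 (-2.74 ± 0.79, adjusted p = 0.0913), Hoxb9, Hoxc12, Hoxc13 and Hoxd13 were not called. Without the filter, Hoxa7 and Hoxc4 were called lower among 35 Hox genes, as were 1.53% of all genes. Stage, tag, medium, time in the compound (6 days against 72 h) and ERCC spike-in differ together between the 2 pairs. This test does not separate them.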

How the data were processed

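For each library the authors deposited a table of read counts per gene, with no normalization. Per the submitters' processing notes, bcl2fastq 2.20.0.422, STAR and DESeq2 1.30.0 were used with GRCm38.p6 (mm10). Whether counting used the strand is not given in the sources used here. Of 240 genes that lie wholly under exons of the opposite strand, 48 to 70 had counts in each library. Identifiers were matched to GENCODE M21, where 55230 of 55471 had an entry and the other 241 made up 0.002% of counts or less in any library. The 92 ERCC spike-ins stayed out of library sizes.

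From the deposited counts, CPM (per 1000000 gene counts) and TPM (per kb of merged exon) were computed with pandas 2.3.3 (Python 3.11.15). Each comparison of 3 libraries against 3 was fitted on its own libraries over all genes in edgeR 4.0.16 (R 4.3.3), with TMM, filterByExpr (minimum count 10) and the quasi-likelihood F test. Adjusted p-values are Benjamini-Hochberg over all genes tested and called below 0.05. The test was checked on simulated counts. Alternatives were DESeq2 1.42.0, its size factors, no filter, all 5 groups in 1 fit, ERCC scaling in mESCs, the replicate number as a block, each library left out, and the libraries that stand apart left out. Ratios of summed reads have exact 95% binomial intervals, which cover counting error only, and a group without reads is set at 3 counts over its libraries. A fold given as at least in such cases takes the reads of the other group as exact and leaves out the spread between libraries.

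Same-numbered libraries deviated together between the EB groups (correlations 0.228, 0.268 and 0.373) and between NSD1-dTAG and wild-type mESCs (0.584, 0.289 and 0.285). In each of these comparisons the library that stands apart has the same number in both groups. These correlations therefore cannot tell whether the numbers pair the samples, and the labels state no shared batch. No replicate pair was alike within sampling noise (lowest chi-square per degree of freedom 1.52). The Hox genes, the lists of regulators and the libraries that stand apart were chosen with earlier results of these data known. Of the genes the rules found, 1 Hox gene and 2 genes of the regulator lists are not reported here, and the counts, sums and medians of Hox genes and lists leave them out. The text names every other Hox gene that passed the filter and gives some of the rest by reads. At most 4 genes per list are named, called ones by p first and then by level. Other genes named, and Hox genes below the filter given by reads, were chosen after their values were seen.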

Additional observations from a re-analysis of the deposited data

Results flagged for a closer look

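The effect of dTAG-13 differed between NSD1-dTAG EBs and wild-type mESCs for 1 Hox gene by the test of the difference itself, where 2.88% of all genes tested were called in either direction. For Hoxc4 the difference of the log2 effects (EBs minus wild-type mESCs) was -3.01 (adjusted p = 0.0238, edgeR). It had 0, 1 and 1 reads in dTAG-13 EBs and 6, 6 and 4 in nontreated EBs, with no overlap. The gene passed the filter through the wild-type mESCs, where it is high, and was not tested between the EB groups. The treated and nontreated wild-type mESCs overlapped in CPM. Leaving out 1 library at a time moved its adjusted p between 0.0190 and 0.101. Streak and mesoderm markers were lower in treated EBs as well, and their part in this difference was not tested.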

How the results depend on the processing

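For dTAG-13 EBs against nontreated EBs, the number of Hox genes called, 0 in the fit reported, was 4 without a count filter, 2 with DESeq2, 2 with all 5 groups in 1 fit and 4 without the libraries that stand apart, all lower. It was 0 to 3 when 1 library was left out, and 0 with the replicate number as a block. Without a filter more genes enter; other causes were not tested. For nontreated EBs against NSD1-dTAG mESCs, 7 calls became 16 without a filter, 11 with DESeq2, 11 without the libraries that stand apart and 7 to 11 with 1 library left out, and the block gave 7. For NSD1-dTAG against wild-type mESCs, 0 calls became 4 without the libraries that stand apart and 0 to 2 with 1 library left out. The block and ERCC scaling gave 0, although ERCC scaling shifted the median of all genes to -0.0993. For dTAG-13 in wild-type mESCs the count was 0 under every alternative run. For the difference of the dTAG-13 effects, 1 call became 2 without a filter and 0 to 1 with 1 library left out, the replicate block gave 1, and DESeq2 was not run on it. The replicate block changed none of these counts of calls. Same-numbered libraries did not all deviate together between nontreated EBs and NSD1-dTAG mESCs (correlations -0.201, 0.127 and -0.268) or between the wild-type groups (-0.288, 0.233 and -0.252). There the libraries that stand apart have different numbers.

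Fold changes of single Hox genes were followed across the alternatives only where the gene passed the filter in the main fit of that comparison. Among these, no value called in the main fit or in an alternative changed sign between them. Of these values, 363 kept their side of the threshold, 6 lost the call and 8 gained it. Calls of genes that only an alternative tested, such as Hoxb1 between the EB groups, are not among them. Changes of sign in genes called in neither fit were not counted. Depth limits these results: most Hox genes had fewer than 10 reads per library, where 1 read more or less moves a fold change, and a 3 against 3 exact permutation test cannot go below p = 0.10. With nontreated EB replicate 2 left out, chosen after seeing the data, the Hoxb1 read ratio between the EB groups was 0.137 in place of 0.0484.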

Other observations

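The noncoding RNA gene Gm53 lies inside the Hoxb cluster at chr11:96251105-96264868 (GRCm38), between Hoxb13 and Hoxb9 and just upstream of Mir196a-1. Over all 15 libraries together it was the most read gene in the clusters that is no Hox gene. In EBs the pseudogene Gm11539 of the same cluster had more reads, 37 over the treated and 51 over the nontreated group, against 20 and 33 of Gm53. Gm53 had 9, 9 and 2 reads in dTAG-13 EBs and 12, 14 and 7 in nontreated EBs, where it was not tested. In NSD1-dTAG mESCs it had 51, 39 and 59 reads, in dTAG-13-treated wild-type mESCs 82, 61 and 59, and in nontreated wild-type mESCs 76, 70 and 38. It was lower in nontreated EBs than in NSD1-dTAG mESCs (log2 fold change -2.33 ± 0.34, adjusted p = 0.000459, edgeR), as was Hoxb9 beside it. The gene was chosen after its values were seen.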
